A study of Homo sapiens with 3 samples.

Results

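The nuclear-encoded subunits of the mitochondrial respiratory chain were followed in A375, an established human melanoma cell line, after exposure to the secretome of young or old adipocytes. Members were the genes annotated as protein coding whose symbol begins with NDUFA, NDUFB, NDUFC, NDUFS or NDUFV and a digit, with UQCR, with COX and a digit from 4 to 8, or with ATP5, together with SDHA to SDHD, CYC1 and CYCS. This rule found 91 of the 58037 genes in the count table, and they were ordered by complex: 37 in complex I, 4 in complex II, 10 in complex III, cytochrome c itself, 19 in complex IV and 20 in complex V. Symbols are given as in the deposited table, which uses older names for complex V (ATP5A1 is now ATP5F1A, and ATP5E is now ATP5F1E).

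A375 cells were kept in serum-free DMEM (control) or were given the secretome of young adipocytes (YA) or of old adipocytes (OA) for 24 h. The adipocytes had been differentiated in culture from subcutaneous preadipocytes of human skin donors, and the labels do not say how many donors stood behind each secretome. Each group was 1 poly(A) RNA library, so no difference could be set against replicate spread and no p-value is given. Intervals are 95% Clopper-Pearson intervals of the fold and cover counting error only, since each group held 1 library. They treat each read as independent, and reads were counted without molecular identifiers. A gene is called higher or lower where normalized counts, with 1 added, differed by at least 1.2-fold, and 81 of the 91 members passed the filter of a mean of 20 normalized counts.

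Libraries held 21448195 (control), 21306558 (YA) and 18089008 (OA) counts. Melanocyte lineage genes were detected through MITF at 1151, 722 and 989 normalized counts in control, YA and OA, and through PAX3 and S100B, whereas TYR, DCT and TYRP1 had at most 6 counts in any library and SOX10 was listed at 0 in all 3. Of 10 melanocyte genes listed, 4 were tested, with 1 higher and 2 lower in YA, and 0 higher and 2 lower in OA. Intervals excluded 1 for the 2 lower in each exposure, and not for the 1 higher in YA. How the authors' counting treated reads shared between genes was not given in the sources used here. Its part in the value of SOX10 was not tested. Among 11 adipocyte genes, LEP was at 0 in every library and ADIPOQ had 1, 0 and 0 counts, while the summed normalized count of the list was 2278, 3228 and 2310. Of the 7 adipocyte genes tested, 7 were higher in YA, and 3 were higher and 1 lower in OA, with LPL at 353, 583 and 30 counts, PLIN4 at 284, 579 and 321 and CIDEC at 6, 31 and 36. Counting intervals of the fold excluded 1 for 5 of the 7 in YA, and for the 3 higher and 1 lower in OA. Fibroblast genes summed to 355, 514 and 335 normalized counts over 9 genes. Of the 5 tested, 3 were higher and 1 lower in YA and 2 higher and 2 lower in OA, with DCN at 13, 138 and 24 counts and PDGFRA at 76, 20 and 51. Intervals excluded 1 for 3 higher and 1 lower in YA, and for 1 higher and 1 lower in OA. Over all tested genes, 17.4% were higher and 16.4% lower in YA, and 21.1% and 21.5% in OA. The part of RNA from other cells in the results below was not tested. In RNA from a whole culture, fewer cells of a type and less RNA per cell cannot be told apart.

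The respiratory chain sits in the inner mitochondrial membrane. Complex I takes electrons from NADH and complex II from succinate, complex III passes them to the small carrier protein cytochrome c, complex IV hands them to oxygen, and the proton gradient built on the way drives ATP synthesis by complex V. Most subunits are made from nuclear genes and imported, while a small set of core membrane subunits is made from 13 mRNAs transcribed inside the organelle, so each complex other than complex II draws on both genomes.

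As a group, the nuclear subunits stood slightly lower after YA and slightly higher after OA than in the control. They took 0.707% of all counts in the control (95% Wilson interval 0.703 to 0.710), 0.670% (0.666 to 0.673) in YA and 0.721% (0.717 to 0.725) in OA. Summed normalized counts were 142841, 134894 and 146352, a fold of 0.944 (interval 0.938 to 0.951) for YA and 1.02 (1.02 to 1.03) for OA. In YA, 64 of 81 members were below the control and 17 above it, and in OA 48 were above it and 33 below. Across all 14413 genes tested, 53.1% were below and 46.9% above the control in YA, and 50.9% were above it in OA. Members had median log2 fold changes of -0.08 in YA and 0.05 in OA, against -0.02 and 0.01 over all genes. These medians were -0.02 and 0.02 once genes of like transcript length and GC content were taken as the reference, as described at the end.

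Few single members passed the fold threshold. In YA, 3 members were higher and 9 lower, while 17.4% and 16.4% of all tested genes were higher and lower. In OA, 10 were higher and 8 lower, against 21.1% and 21.5% of all genes. As shares of the 81 members these are 3.70% and 11.1% in YA and 12.3% and 9.88% in OA, all below the background. The members were also more deeply counted than other genes, with a median normalized count of 1195 against 643 over all tested protein-coding genes. Counting intervals excluded a fold of 1 for 7 members above and 32 below the control in YA (background 20.6% and 25.6%), and for 29 above and 12 below in OA (background 26.6% and 24.7%). The whole interval lay beyond 1.2-fold for 2 members above and 1 below in YA (background 6.03% and 4.44%), and for 3 above and 1 below in OA (background 9.04% and 9.08%).

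The secretomes were also compared directly. YA was below OA for 64 of 81 members, and the members' median was -0.15 on the log2 scale, where 51.5% of all genes were below and the median was -0.01. Of the members, 6 were called higher and 13 lower in YA than in OA, beside 23% and 21.5% of all genes. With the whole interval beyond 1.2-fold, 2 were higher and 6 lower (background 10% and 9.03%). The order YA, control, OA from lowest to highest was shown by 34 members, or 42.0%, and by 21.4% of all genes. These comparisons share libraries, so the counts are not independent of each other.

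**Figure D1:**
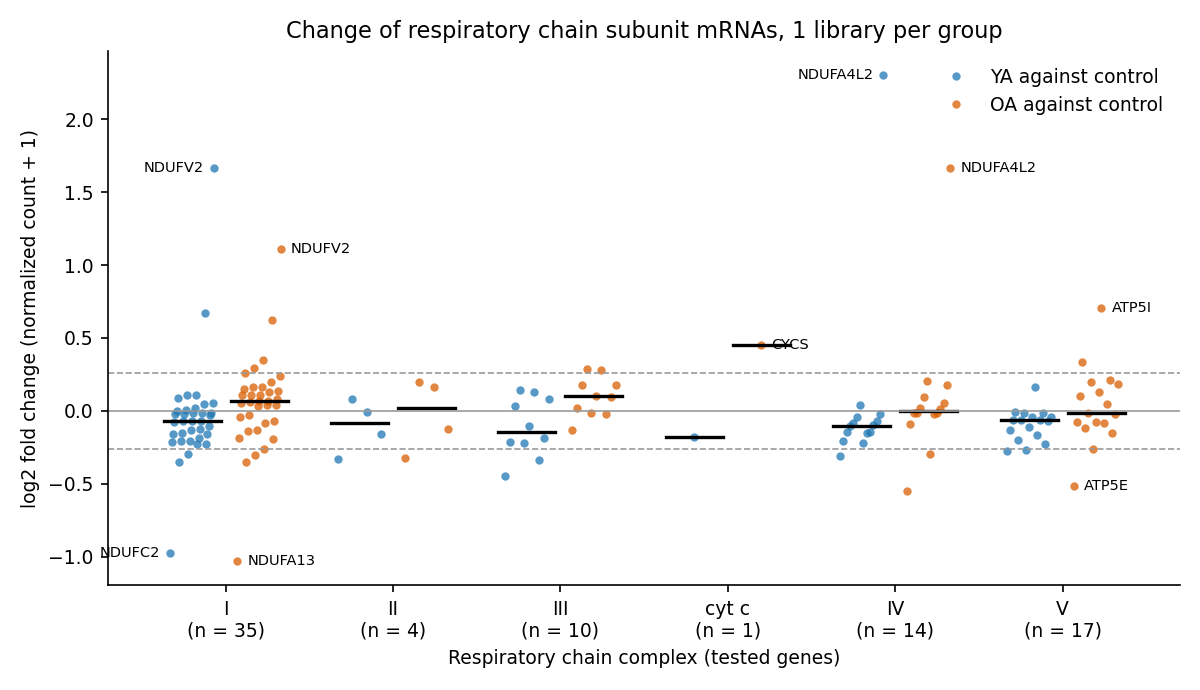
Log2 fold change against the control of each tested member, by complex, for YA (blue) and OA (orange). Black bars are medians, and dashed lines mark 1.2-fold. Most points lie between the dashed lines, YA medians are below 0 in every complex, and NDUFA4L2 is the highest point in both exposures (4.93-fold in YA and 3.16-fold in OA).

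Several promoter motifs were more frequent among members than among all protein-coding genes, though NRF1, ETS and YY1 were each in a minority of members. The choice of members did not use them. RefSeq promoter windows (GRCh38.p14, from 250 bases before to 50 after the start of the gene) were found for 69 of the 91 members and were searched on both strands for 7 motifs. The NRF1 motif, in capitals in SDHD and UQCRFS1 below, was in 23.2% of members' windows and in 7.34% of 21957 protein-coding windows. The ETS motif CCGGAAG, bound by GABP among others, was in 27.5% against 12.8%, and the YY1 motif AAGATGGC in 15.9% against 3.54%. By contrast the SP motif GGGCGG (58.0% against 56.3%) and the TATA box TATAAA (10.1% against 9.52%) were at about the share of all coding genes. The CRE motif TGACGTCA was in 7.25% against 2.25%, and the ERR motif TNAAGGTCA, held by 2 members, in 2.90% against 0.669%. The NRF1 motif was in 6 of 32 windows of complex I, 2 of 3 of complex II and 4 of 7 of complex III. It was in 1 of 14 windows of complex IV and 3 of 12 of complex V. The 1 in complex IV belonged to COX8C, which was at 0 in every library. A match is a description of the letters and not evidence of binding.

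Parts of 5 promoters, from 150 bases before to 30 after the start, are printed to show these motifs beside genes whose values follow. SDHD was called lower in both exposures, UQCRQ and ATP5J in YA, and UQCRFS1 and CYCS in YA relative to OA. Capitals mark NRF1, ETS, YY1 and ERR matches, read 5′ to 3′ on the strand of the gene.
SDHD (chr11:112086723-112086902, plus strand): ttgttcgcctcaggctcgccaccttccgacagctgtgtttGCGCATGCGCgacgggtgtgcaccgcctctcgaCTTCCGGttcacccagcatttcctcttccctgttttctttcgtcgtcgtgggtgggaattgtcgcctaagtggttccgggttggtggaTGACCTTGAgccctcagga
UQCRFS1 (chr19:29213122-29213301, minus strand): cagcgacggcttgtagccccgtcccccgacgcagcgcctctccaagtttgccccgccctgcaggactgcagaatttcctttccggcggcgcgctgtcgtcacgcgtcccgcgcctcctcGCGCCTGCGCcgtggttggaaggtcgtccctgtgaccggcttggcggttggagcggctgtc
UQCRQ (chr5:132866492-132866671, plus strand): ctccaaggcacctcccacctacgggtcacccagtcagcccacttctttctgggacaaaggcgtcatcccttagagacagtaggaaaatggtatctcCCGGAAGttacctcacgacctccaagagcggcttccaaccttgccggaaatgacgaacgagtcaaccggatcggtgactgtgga
ATP5J (chr21:25735025-25735204, minus strand): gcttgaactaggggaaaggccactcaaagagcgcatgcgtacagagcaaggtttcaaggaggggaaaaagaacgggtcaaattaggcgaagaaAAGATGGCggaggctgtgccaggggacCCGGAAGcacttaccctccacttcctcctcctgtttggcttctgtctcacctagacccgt
CYCS (chr7:25125231-25125410, minus strand): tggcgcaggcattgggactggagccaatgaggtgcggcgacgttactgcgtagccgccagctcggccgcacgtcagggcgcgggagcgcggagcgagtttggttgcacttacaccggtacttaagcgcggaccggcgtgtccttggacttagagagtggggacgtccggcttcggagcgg
In SDHD the NRF1 match began 110 bases before the start, the ETS match 77 bases before it and the ERR match at position 12 after it. In UQCRFS1 the NRF1 match began 31 bases before the start, in UQCRQ the ETS match 54 bases before it, and in ATP5J the YY1 and ETS matches 57 and 30 bases before it. CYCS held none of the 7 motifs in the whole window, in these letters. For the 15 tested members with an NRF1 motif, the log2 medians were -0.13 in YA and 0.09 in OA, and for the 49 without one they were -0.07 and 0.05. With an ETS motif the medians were -0.19 and -0.01 (n = 19), and without one -0.07 and 0.07 (n = 45). With a YY1 motif they were -0.04 and 0.10 (n = 10), and without one -0.08 and 0.05 (n = 54). In YA against OA the medians with and without the motif were -0.15 and -0.16 for NRF1, -0.20 and -0.15 for ETS, and -0.11 and -0.17 for YY1.

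Cytochrome c separated all 3 libraries. CYCS, which encodes the protein that shuttles electrons from complex III to complex IV and also triggers caspase activation once released into the cytosol, had 1755 normalized counts in the control, 1551 in YA and 2399 in OA. Its OA library was the highest and its YA library the lowest. CYCS was 1.37-fold the control in OA (interval 1.28 to 1.45), 0.884-fold in YA (0.826 to 0.945), and 0.647-fold in YA relative to OA (0.606 to 0.690). Pseudogenes whose symbol fits the rule, 146 in the table, summed to 269, 218 and 257 counts against 151589, 142728 and 130381 for the members. The rule takes CYCS, CYC1 and SDHA to SDHD only as exact symbols. Pseudogenes of these genes under longer symbols are therefore not among the 146. Reads assigned to copies of CYCS were not summed here.

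Complex I held 35 tested genes of 37, with medians of -0.07 in YA, 0.07 in OA and -0.15 in YA against OA. Its catalytic core, which carries the flavin and the iron-sulfur clusters, was mostly near the control. NDUFV1, which holds the flavin, had 2719, 2805 and 2856 normalized counts in control, YA and OA and was not called. NDUFS1, the largest iron-sulfur core subunit, had 2968, 2557 and 2698 normalized counts, 0.862-fold in YA (interval 0.818 to 0.907) and 0.909-fold in OA, lower in both. NDUFS8, another iron-sulfur core subunit, went the other way at 1428, 1520 and 1751 normalized counts and was 1.23-fold in OA (1.14 to 1.32). The call for NDUFS8 ended, at a log2 fold change of 0.15, when transcript length and GC content were adjusted for.

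Of 17 tested accessory subunits of complex I outside the B family, 1 was higher and 3 lower in YA, 1 higher and 4 lower in OA, and 2 higher and 4 lower in YA than in OA. Over all tested genes, 17.4% were higher and 16.4% lower in YA, and 21.1% and 21.5% in OA. In YA against OA these shares were 23% and 21.5%. NDUFA1, a small membrane-anchoring subunit encoded on the X chromosome, had 1273, 1036 and 1428 normalized counts in control, YA and OA. It was 0.814-fold in YA (interval 0.751 to 0.882) and 0.726-fold in YA relative to OA (0.669 to 0.787). NDUFS6, a zinc-binding subunit added late in assembly, had 1623, 1404 and 1866 normalized counts and was 0.753-fold in YA relative to OA. NDUFA8 (825, 715 and 889) and NDUFB3 (456, 419 and 538) showed the same order and were called lower in YA than in OA at 0.804-fold and 0.779-fold. The calls of NDUFA1 in YA (log2 fold change -0.22) and of NDUFS6, NDUFA8 and NDUFB3 in YA against OA (-0.23, -0.24 and -0.22) ended with the same adjustment. NDUFA1 also shares 44.5% of its transcript with RNF113A on the opposite strand, which had 327, 304 and 241 counts. NDUFA6, an LYR-motif subunit that binds the mitochondrial acyl carrier protein, was instead lowest in the control at 539, with 580 in YA and 688 in OA, and was 1.28-fold in OA (1.14 to 1.43). The 11 subunits of the B family, which sit mostly in the membrane arm, were closely grouped in YA, with log2 fold changes from -0.16 to 0.02. Of these, 10 were below 0 and none was called, where 53.1% of all tested genes were below 0.

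A few complex I genes had so few counts that their large folds rest on little. NDUFA13, also known as GRIM-19, had 40, 64 and 16 counts in control, YA and OA, giving 1.59-fold in YA (interval 1.06 to 2.45) and 0.490-fold in OA (0.249 to 0.870). NDUFV2, a core iron-sulfur subunit, had 11, 37 and 21 counts, or 3.16-fold in YA (1.69 to 7.33). NDUFC2 had 64, 32 and 42 counts and was 0.510-fold in YA (0.317 to 0.778). NDUFA9 (100, 78 and 68 counts) and NDUFB8 (19, 18 and 25) passed the fold threshold in 1 or more comparisons with intervals that included 1.

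Of 9 subunits with a mean under 150 normalized counts, 7 shared 25% or more of their transcript with another annotated gene. Levels were set per length here, as CPM (counts scaled to the library total) per kb of the principal GENCODE transcript, averaged over the 3 libraries. Sharing was the percentage of that transcript's bases that lie in exons of another gene on either strand. Leaving out tissue isoforms, read-through genes and other non-subunits, 6 subunits shared 50% or more of their transcript (NDUFA7, NDUFA11, NDUFB2, NDUFB8, NDUFV2 and ATP5O), and their median level was 3.54 CPM per kb. The median was 47.1 for 11 subunits that shared 25% to under 50% and 58.2 for 59 that shared less. NDUFV2 shared 82.9% of its transcript with AP005263.1, NDUFB8 shared 71.7% with AL133352.1, NDUFA7 shared 75.9% with AC010323.1 and NDUFA11 shared 67.0% with AC024592.3, and each of those partners was listed at 0 in all 3 libraries. NDUFB2 shared 74.4% with BRAF, which runs on the opposite strand and had 1090, 1214 and 880 counts. The strand setting and the treatment of shared reads in the authors' counting were not given in the sources used here, and their part in these low levels was not tested. Per-length levels also rest on the transcript chosen, which was 8363 nt long for NDUFA9, and no other transcript was tried.

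**Figure D2:**
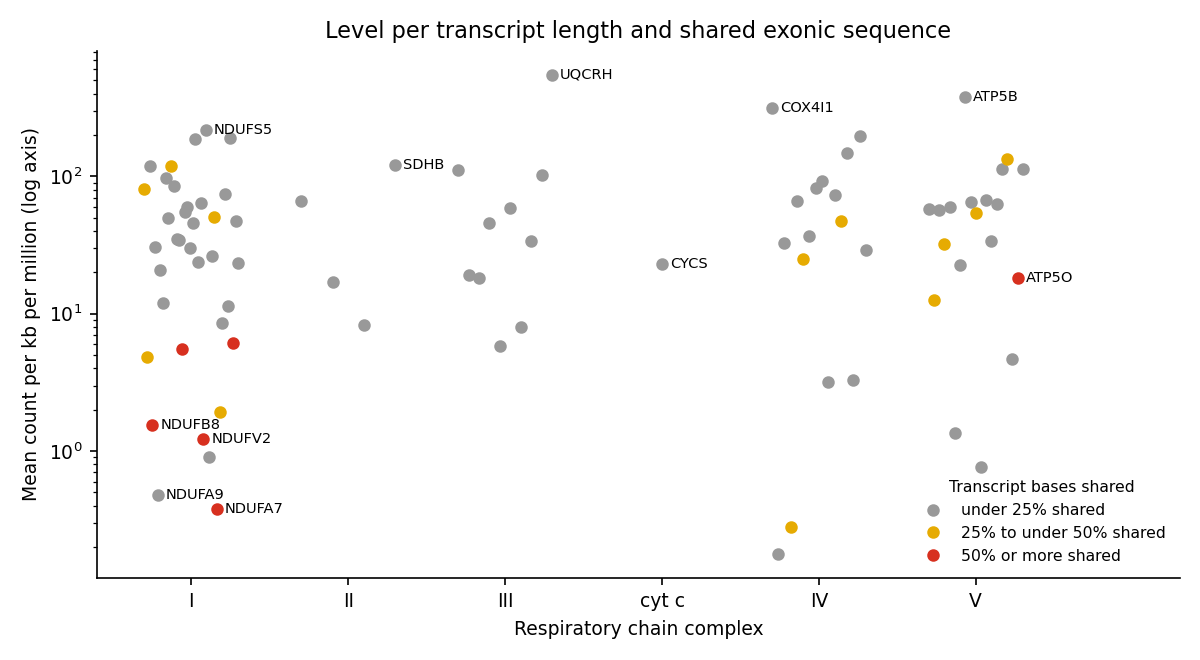
Mean CPM per kb of principal transcript over the 3 libraries (log axis) of members with any count, by complex, colored by the percentage of transcript bases that also lie in exons of another gene. The red points (50% or more shared) have a median of 3.54 among subunits, and the gray points (under 25%) 58.2. The 5 members listed at 0 in every library are not drawn.

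Complex II is built only from nuclear genes, and its catalytic and membrane parts separated. SDHA, the flavoprotein that oxidizes succinate, had 3037 normalized counts in the control, 3025 in YA and 3490 in OA, and SDHB, the iron-sulfur subunit, had 2656, 2805 and 2978. Neither was called, at 1.15-fold (interval 1.09 to 1.21) and 1.12-fold (1.06 to 1.18) in OA. SDHD, a heme-binding membrane anchor, had 572, 455 and 457 normalized counts, and both exposures were below the control. SDHD was 0.795-fold in YA (0.704 to 0.897) and 0.799-fold in OA (0.703 to 0.907), and the call in YA ended, at a log2 fold change of -0.20, with the adjustment for length and GC content. SDHD shared 22.2% of its transcript with AP002884.3, listed at 0. SDHC, the other anchor, had 2424, 2172 and 2226 normalized counts, 0.896-fold and 0.918-fold, lower in both without passing the threshold. For the 4 complex II assembly factors the log2 median in OA was 0.26. SDHAF4 (50.9, 52.9 and 73.0 normalized counts, interval of the OA fold 0.984 to 2.10) and SDHAF3 (261, 256 and 315) were called higher. Over all tested genes 21.1% were called higher in OA, and 1 of these 4 genes had an interval above 1.

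In complex III, all 10 genes, with the retrogene copy UQCRHL among them, had less in YA than in OA. Log2 medians were -0.14 in YA, 0.10 in OA and -0.16 between them. Of the 10, 3 were called lower in YA than in OA and 6 had an interval below 1. Over all tested genes 51.5% were below OA, 21.5% were called lower and 28.9% had an interval below 1. The core proteins were not called. UQCRC1 had 3996, 4092 and 4263 normalized counts and UQCRC2 2948, 3119 and 3335, both within 1.13-fold of the control. The electron-carrying subunits lay on opposite sides of the control in YA, where neither was called. UQCRFS1, the Rieske iron-sulfur protein whose promoter is printed above, had 1277, 1099 and 1447 normalized counts. CYC1, cytochrome c1, had 2505, 2745 and 3051. UQCRFS1 was 0.861-fold in YA (interval 0.795 to 0.932) and 0.760-fold in YA relative to OA (0.701 to 0.823). CYC1 was above the control in both exposures and called in OA at 1.22-fold (1.15 to 1.29), a call that ended at a log2 fold change of 0.17 after the adjustment for length and GC content.

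The 5 small subunits of complex III, which surround the catalytic core, had a median of -0.22 in YA, with 4 below the control. Over all tested genes 53.1% were below it. UQCRQ had 811, 641 and 872 normalized counts in control, YA and OA, 0.790-fold in YA (interval 0.713 to 0.874) and 0.735-fold relative to OA (0.662 to 0.815). UQCR11 had 178, 130 and 163 normalized counts, 0.734-fold in YA (0.584 to 0.917). UQCRH, the hinge protein and the most abundant member per length at 549 CPM per kb, had 7078, 6066 and 6977 normalized counts, so YA alone stood apart at 0.857-fold (0.829 to 0.886). UQCR10 was above the control in both exposures, at 569, 629 and 690 normalized counts and 1.21-fold in OA (1.08 to 1.36). With length and GC content adjusted for, UQCR11 stayed called in YA, while UQCRQ in YA (log2 fold change -0.26) and UQCR10 in OA (0.19) fell short of the threshold. UQCRB, at 2247, 1980 and 2226 normalized counts, was not called, and UQCRHL, a retrogene copy of UQCRH, had 358, 333 and 364 normalized counts.

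Over the 14 tested genes of 19 in complex IV, log2 medians were -0.10 in YA, -0.0003 in OA and -0.11 between them. Of its 11 ubiquitous subunits, 10 were below the control in YA and 8 had an interval below 1, with a median of -0.11. Only 1 of the 11 passed the fold threshold. Over all tested genes 53.1% were below the control in YA, 25.6% had an interval below 1 and 16.4% were called lower. Intervals narrow with depth, and members were more deeply counted than other genes. COX4I1, the regulatory subunit, had 5699, 5384 and 5632 normalized counts, COX5A 2173, 2032 and 2151, and COX5B 2803, 2879 and 2762, none of them called. COX6A1 had 315, 253 and 296 normalized counts and was 0.805-fold in YA (interval 0.683 to 0.948). COX6C had 1805, 1564 and 1470.5 and was 0.815-fold in OA (0.759 to 0.874), lower in both exposures. COX7C had 2205, 1897 and 2288 and was 0.829-fold in YA relative to OA (0.779 to 0.882). After adjustment for transcript length and GC content the median of complex IV was -0.004 in YA and -0.001 in YA against OA, and the calls of COX6A1 in YA (log2 fold change -0.23) and of COX7C in YA against OA (-0.12) ended. COX7C was also short of the threshold with edgeR TMM scaling (-0.26). Without that adjustment the mean over the 14 genes in YA was 0.05, opposite in sign to the median, and the range reached from -0.31 to the value of NDUFA4L2.

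NDUFA4L2 had the largest fold of the 81 tested members in both YA and OA. It encodes a paralog of NDUFA4, a complex IV subunit once assigned to complex I, and is known to be induced by hypoxia through HIF-1. NDUFA4L2 had 26 counts in the control, 132 in YA and 71 in OA, so both exposed libraries were above the control and YA was the highest. The fold was 4.93 in YA (interval 3.33 to 8.08), 3.16 in OA (2.05 to 5.31) and 1.56 in YA relative to OA (1.16 to 2.12). NDUFA4 itself had 1559, 1398 and 1297 counts, or 1469, 1321 and 1456 normalized counts. NDUFA4L2 thus made up 1.64% of the counts of the pair in the control (Wilson interval 1.12 to 2.39), 8.63% (7.32 to 10.1) in YA and 5.19% (4.14 to 6.50) in OA, and 2.91%, 14.5% and 8.95% when each was set per transcript length. It remained the minor form in all 3 libraries.

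Other tissue or condition isoforms of complex IV had few counts or none. COX4I2, the lung and hypoxia isoform, was at 0 in each library, which allows a share of the COX4 pair of up to 0.0496% in the control, 0.0527% in YA and 0.0598% in OA. COX6A2, the heart and muscle isoform, and COX8C were also at 0 in every library. COX7A1, the muscle isoform, had 2, 2 and 4 counts beside 1871, 1690 and 1592 for COX7A2, and COX6B2, the testis isoform, had 7, 15 and 13 beside 2118, 1961 and 1900 for COX6B1. COX7B2 had 51, 46 and 29 counts and made up 2.60% of the COX7B pair in the control (1.99 to 3.41) and 1.58% in OA (1.10 to 2.26). Per transcript length COX7B2 made up 9.67% of the pair in the control, 9.23% in YA and 6.04% in OA.

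**Figure D3:**
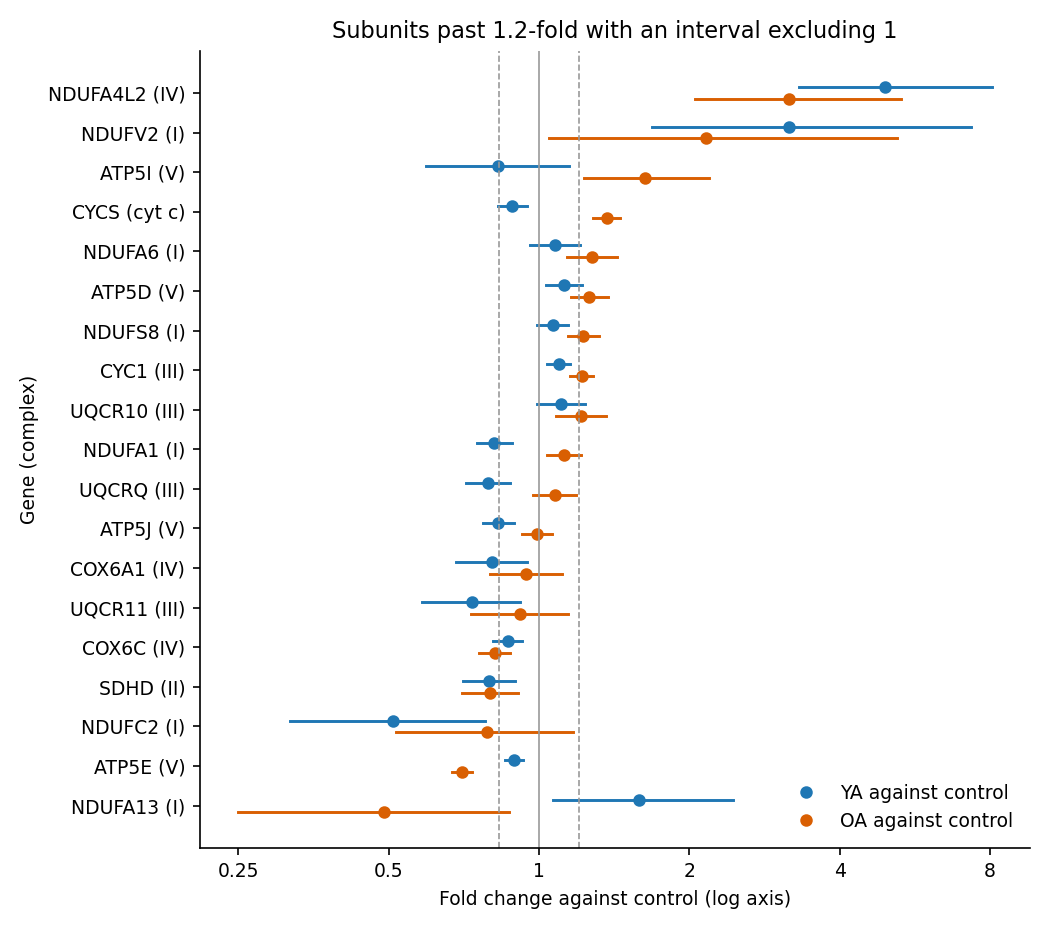
Fold change against the control (log axis) with its 95% counting interval for the 19 members that passed 1.2-fold with an interval excluding 1 in YA (blue) or OA (orange). Dashed lines mark 1.2-fold in either direction. NDUFA4L2 and NDUFV2 lie furthest to the right in both exposures, CYCS and ATP5I lie right of 1 in OA only, and NDUFA13 lies on opposite sides in YA and OA.

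Complex V had medians of -0.06 in YA, -0.01 in OA and -0.16 in YA against OA over 17 tested genes of 20. These include ATP5SL, now named DMAC2, which was placed here by its symbol. ATP5SL is also counted among the 18 complex I assembly factors below. In the catalytic F1 head the alpha and beta subunits were not called. ATP5B, the beta subunit that forms ATP and the most counted member, had 13878, 13711 and 14867 normalized counts, and ATP5A1, the alpha subunit, had 7190, 6266 and 7078. ATP5A1 was 0.872-fold in YA (interval 0.843 to 0.901) and 0.985-fold in OA, so YA was the lowest. ATP5D, the delta subunit of the central stalk, had 1023, 1146 and 1292 normalized counts and was 1.26-fold in OA (1.16 to 1.37), a call that ended at a log2 fold change of 0.19 after the adjustment for length and GC content.

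ATP5E had the largest difference from the control within F1. This gene encodes the epsilon subunit of the central stalk, and it had 4617 normalized counts in the control, 4108 in YA and 3237 in OA, with both exposures below the control and OA the lowest. It was 0.701-fold in OA (interval 0.669 to 0.734), 0.890-fold in YA (0.854 to 0.927) and 1.27-fold in YA relative to OA (1.21 to 1.33), the reverse of the order of most members. ATP5E shared 32.4% of its transcript with TUBB1 on the opposite strand, which had 16, 29 and 12 counts. ATP5I, the e subunit that helps ATP synthase form dimers, had 85, 70 and 117 counts and was 1.63-fold in OA (1.23 to 2.19), and it shared 49.9% of its transcript with MYL5 on the opposite strand, which had 135, 225 and 134 counts.

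The peripheral stalk holds the F1 head still against the rotor. ATP5J, subunit F6, had 1654, 1371 and 1641 normalized counts and was 0.829-fold in YA (interval 0.773 to 0.889), a call that ended at a log2 fold change of -0.22 after the adjustment. Its exons overlap by 277 bases those of GABPA, which encodes a subunit of the ETS factor GABP, lies on the opposite strand and had 1302, 1105 and 936 counts. ATP5O, the OSCP subunit at the top of the stalk, had 376, 343 and 314 normalized counts and stood just inside the threshold in OA at 0.836-fold (0.715 to 0.976), passing it under edgeR TMM scaling (log2 fold change -0.27). In the membrane part, ATP5J2, the f subunit, had 800, 766 and 925 normalized counts and was 0.828-fold in YA relative to OA (0.750 to 0.913), a call lost under TMM scaling and under the adjustment (-0.26 and -0.20). The c ring, whose rotation drives the stalk, is encoded by 3 genes for the same mature protein. ATP5G2 gave 58.7% of their summed counts in the control, 59.7% in YA and 53.6% in OA (52.4 to 54.8), and ATP5G3 gave 30.7%, 30.3% and 35.3% (34.2 to 36.5). These transcripts differ in length, and per length ATP5G1 gave 32.5%, 31.2% and 34.8%, ATP5G2 56.9%, 58.3% and 52.9%, and ATP5G3 10.6%, 10.5% and 12.4%. By both measures OA had more ATP5G3 and less ATP5G2 than the control. None of these 3 genes was called.

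Members that failed the filter are named here for completeness. Besides the isoforms above and NDUFA7 (2, 9 and 3 counts), these were the read-through genes NDUFC2-KCTD14 and ATP5J2-PTCD1, at 0 in every library, and the copies ATP5EP2 (17, 12 and 15 counts) and ATP5L2 (20, 6 and 11). The rule also misses 4 related genes whose symbols differ, all of them subunits except ATPIF1. Of these, NDUFAB1, the acyl carrier protein, had 1396, 1357 and 1702 normalized counts, USMG5 had 2364, 2086 and 2926, and ATPIF1, the inhibitor of ATP synthase, had 1963, 1794 and 2361. All 3 were called higher in OA, where 21.1% of all tested genes were. Their log2 fold changes in OA were close to the threshold, at 0.285 for NDUFAB1, 0.308 for USMG5 and 0.266 for ATPIF1. Counting intervals of these folds began below 1.2-fold, at 1.13, 1.17 and 1.13. Values adjusted for transcript length and GC content are not given here for the 4 genes. The median of the 4 was -0.16 in YA and 0.28 in OA. C14orf2, the fourth, was lower in YA at 1266, 1042 and 1156.

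Mitochondrially encoded subunits were higher in YA while their nuclear partners were slightly lower. Normalized counts summed over 7 mitochondrial subunits of complex I were 1.82-fold the control in YA (interval 1.81 to 1.84), while the 37 nuclear genes were 0.944-fold (0.930 to 0.957). For complex III the values were 1.59-fold and 0.948-fold, for complex IV 1.53-fold and 0.939-fold, and for complex V 1.52-fold and 0.943-fold. In OA the mitochondrial sums were 1.19-fold for complex I, 0.856-fold for complex III, 1.04-fold for complex IV and 0.999-fold for complex V, and the nuclear sums were 1.04, 1.06, 1.00 and 0.988. The nuclear sums in YA, from 0.939 to 0.948, were close together, and each had an interval below 1.

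**Figure D4:**
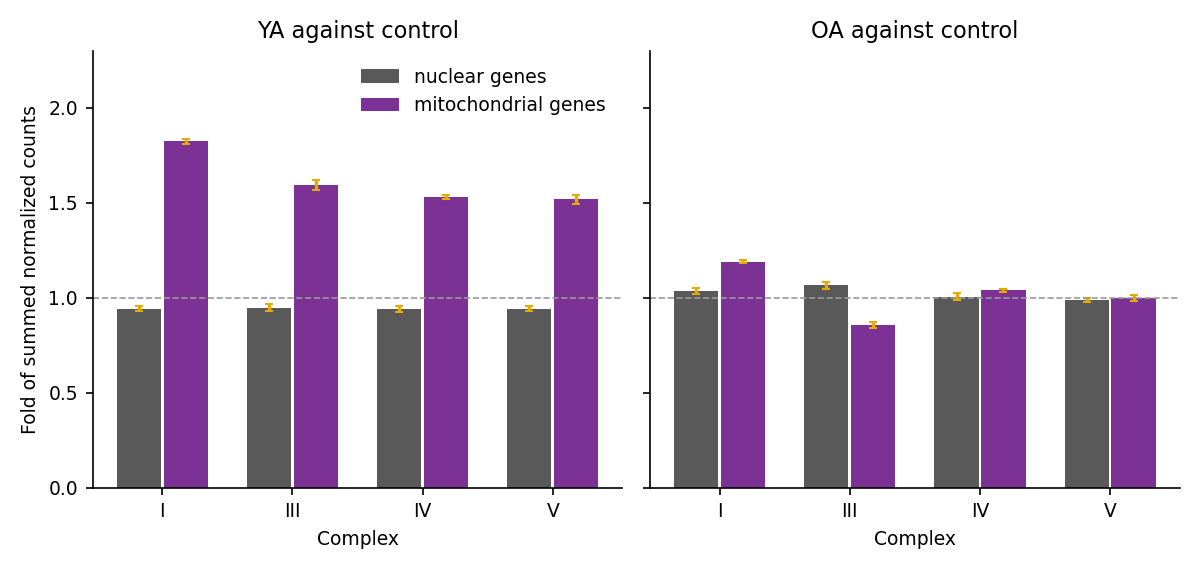
Fold of summed normalized counts against the control, with 95% counting intervals, for nuclear (gray) and mitochondrial (purple) genes of complexes I, III, IV and V. In YA every purple bar is above 1 (1.52 to 1.82) and every gray bar just below it (0.939 to 0.948), while in OA all bars lie between 0.856 and 1.19.

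Other genes of mitochondrial biogenesis were read from lists, whose called counts stand beside the same background of 17.4% higher and 16.4% lower in YA and 21.1% higher and 21.5% lower in OA. Mitochondrial ribosomal proteins, which translate the 13 mitochondrial mRNAs, had medians of -0.07 in YA, 0.05 in OA and -0.13 between them over 77 tested genes, with 0 higher and 9 lower in YA and 8 higher and 3 lower in OA. These are close to the values of the respiratory chain members. Mitochondrial import genes had medians of -0.11 and 0.12 (26 tested, 1 higher and 1 lower in YA, 4 and 2 in OA), and genes of the TCA cycle -0.002 and 0.07 (19 tested, 1 and 0, then 2 and 1). Assembly factors had medians of -0.02 and 0.09 for complex I (18 tested, 0 higher and 2 lower in YA, 2 and 3 in OA), and -0.04 and 0.05 for complex IV (20 tested, 1 and 4, then 2 and 2). The medians were 0.10 and 0.19 for 6 assembly factors of complex III, -0.16 and -0.04 for 4 of complex V, -0.07 and 0.05 for 10 genes of MICOS and cristae, 0.01 and 0.06 for 13 of coenzyme Q synthesis, -0.08 and 0.003 for 8 ADP and phosphate carriers, and -0.01 and -0.02 for 6 other dehydrogenases that feed the chain. Cytosolic ribosomal proteins, which are also short and abundant, differed in direction in OA, at -0.14 and -0.24 over 84 genes.

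Among 20 tested regulators of mitochondrial biogenesis, 7 were higher and 0 lower in YA, and 8 were higher and 2 lower in OA, beside 17.4% and 16.4% of all genes in YA and 21.1% and 21.5% in OA. PPARGC1A, the coactivator PGC-1alpha that marks a respiratory subset of melanomas, had 16, 22 and 55 counts, 3.90-fold in OA (interval 2.31 to 7.66). PPARGC1B, its relative, had 148, 231 and 348 normalized counts, 1.56-fold in YA (1.27 to 1.92) and 2.34-fold in OA (1.94 to 2.87). NRF1, whose motif is marked above, had 423, 485 and 543 normalized counts and was 1.28-fold in OA (1.13 to 1.46), while GABPA, at 1227, 1044 and 1051, was not called in either. POLRMT, the mitochondrial RNA polymerase, had 1307, 1636 and 1937 normalized counts, called higher in both exposures, and TFAM, which packages and transcribes mitochondrial DNA, had 1579, 1361 and 1431, called in neither.

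Members are short, and medians were taken by transcript length. The median principal transcript was 1153 nt for the 81 tested members and 3292.5 nt for all tested protein-coding genes, and 43.2% against 4.18% were under 1000 nt. Over all 1254 tested genes under 1000 nt the medians were -0.08 in YA, 0.06 in OA and -0.15 in YA against OA. The 35 members in that range had -0.07, 0.10 and -0.16, and 484 other protein-coding genes in it had -0.06, 0.06 and -0.12. In YA 77.1% of these short members, 60.0% of all short genes and 60.7% of the short protein-coding genes that are no members were below the control. Among longer transcripts the medians of members and of all genes were further apart in YA against OA. From 2000 to under 4000 nt the median was -0.11 for 12 members and -0.01 for all genes, and at 4000 nt and above it was -0.12 for 10 members and 0.03 for all genes. These length classes rest on the 1 transcript chosen per gene, which was 5575 nt long for UQCRB and 13566 nt for SDHC. No other transcript was tried, so members in the longer classes may be long only in the annotation. Over the 81 members, Spearman correlations of the log2 fold change with GC content and with length were 0.38 and -0.08 in YA. They were 0.24 and -0.20 in OA, and 6.8e-05 and 0.16 in YA against OA. Over all genes they were 0.19 and 0.02 in YA, 0.08 and -0.09 in OA, and 0.08 and 0.10 in YA against OA. When the median of genes of like transcript length and GC content was subtracted, the members' medians were -0.02 in YA, 0.02 in OA and -0.07 in YA against OA, with 50, 37 and 53 of 81 below 0. The number called lower in YA was then 3, the number called higher in OA 6, and the number lower in YA than in OA 8. Of the 12 calls in YA, 6 were kept and 6 lost, of the 18 in OA 14 were kept and 4 lost, and of the 19 in YA against OA 14 were kept and 5 lost. UQCR10 in YA (0.28) and ATP5O in OA (-0.29) were newly called.

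**Figure D5:**
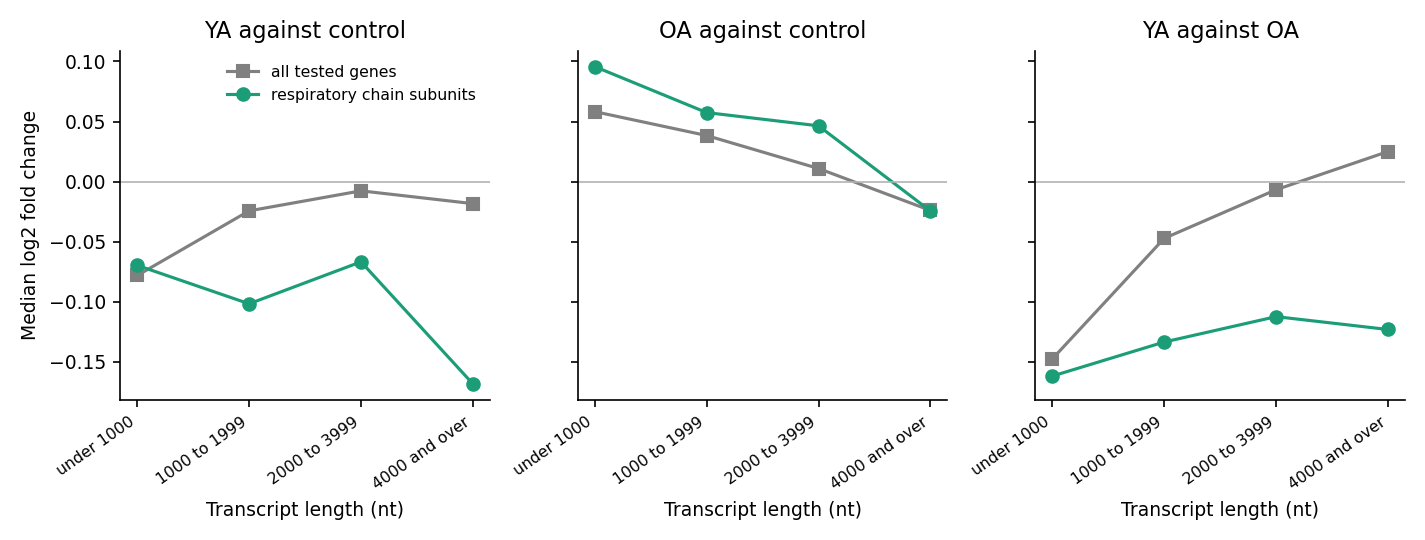
Median log2 fold change by length of the principal transcript for the tested members (green circles) and for all tested genes (gray squares), in the 3 comparisons. Under 1000 nt both lines lie close together (-0.07 and -0.08 in YA, -0.16 and -0.15 in YA against OA), and at 4000 nt and above they separate in YA against OA (-0.12 and 0.03).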

How the data were processed

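Poly(A) libraries of A375 cells in 3 groups (control, YA and OA) were prepared from Qiagen-extracted RNA with Agilent SureSelect chemistry and sequenced on a NovaSeq. The deposited table held whole-number counts for each gene, with no normalization by the authors. The submitters' processing notes name STAR 2.5.1b, featureCounts, R 3.6.1 and hg38; the annotation release and the strand setting were not given in the sources used here. Exposure was 24 h per the series description, whereas the treatment protocol also allows longer times.

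Counts were divided by DESeq2 1.42.0 median-of-ratios size factors (1.06, 1.06 and 0.891 for control, YA and OA). Genes with a mean normalized count of at least 20 over the 3 libraries were kept (14413 genes, 99.7% of counts). Log2 fold changes used a pseudocount of 1, and a fold of 1.2 in either direction defined higher and lower. The study's methods name 1.2 for upregulated genes without its scale, so 1.2 on the log2 scale was an alternative. With 1 library per group no test was run, and 95% Clopper-Pearson or Wilson intervals covered counting error. A count of 0 was given an upper limit of 3 counts. Transcript lengths, GC content and shared exons came from GENCODE release 29 (57433 of 58037 identifiers, all 91 members), using the longest of the best-ranked APPRIS transcripts of a gene. Promoters came from RefSeq (GRCh38.p14).

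Named members were core subunits, isoform pairs, members past 1.2-fold with an interval excluding 1, the 3 highest and 3 lowest in each comparison, and those that failed the filter; other members and listed genes were added after their values were seen, to give the rest of a complex or list. Not every core subunit is reported here by name. Members and gene lists were chosen with earlier results of these data known. Alternatives were edgeR 4.0.16 TMM and total-count scaling, other filters, pseudocounts and thresholds, the mean in place of the median, an adjustment for transcript length and GC content on a grid of 10 by 10 classes, subunits only and, chosen after seeing the data, leaving out members that shared 50% or more of their transcript. Scripts were tested on simulated data.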

Additional observations from a re-analysis of the deposited data

How the results depend on the processing

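No paired analysis was possible because each group held 1 library, and for the same reason no library could be left out. The median log2 fold changes of the members kept their sign under every alternative tried: -0.08 to -0.02 in YA, 0.02 to 0.06 in OA and -0.16 to -0.07 in YA against OA, with the values nearest 0 from the adjustment for transcript length and GC content. Scaling by edgeR TMM or total counts, a pseudocount of 5, subunits only and leaving out members with 50% or more of their transcript shared (the last chosen after seeing the data) changed no count of calls by more than 1.5 times. Of single calls, TMM and total-count scaling each lost those of ATP5J2 and COX7C in YA against OA and added ATP5O in OA, and a pseudocount of 5 lost ATP5I in YA and NDUFA11 in OA. Without a filter, 5 members were called higher in YA. With a minimum mean of 100, 0 were higher in YA, 6 higher and 3 lower in OA, and 1 higher in YA than in OA, from 72 members. At a 2-fold threshold 0 were lower in YA, 2 higher and 1 lower in OA, and 1 higher and 0 lower in YA against OA. At a log2 threshold of 1.2 these counts were 0, 1, 0, 1 and 0, and where the whole counting interval had to pass 1.2-fold they were 1, 3, 1, 2 and 6. The adjustment for length and GC content left 3 lower in YA, 6 higher in OA and 8 lower in YA than in OA. With nuclear protein-coding counts as the denominator the members' share was 0.729% in the control, 0.699% in YA and 0.744% in OA. Of 822 values of single named members under alternatives, 26 moved beyond their counting interval, all 26 under the length and GC adjustment. Depth limits the sparse members: 9 subunits had a mean under 150 normalized counts, where intervals of the fold were wide.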
